A study of Homo sapiens with 2 samples.

Results

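The genes described here run the entry into mitosis and the exit from it: the kinases AURKA, PLK1, PLK4 and CDK1, the Aurora A activator TPX2, the cyclins CCNA2, CCNB1 and CCNB2, and CDC20 and UBE2C, which work with the anaphase-promoting complex (APC/C). They were named as a group by function, with earlier results of these data known. Their measurements were all probe sets that the platform annotation assigns to 1 of these genes alone. This gave 21 of 54613 probe sets for 10 of 19775 measured genes, and no probe set was shared with another gene. The profiles came from AGS, a human gastric adenocarcinoma cell line, infected with a lentivirus and selected with puromycin as stable lines. AGS.W carried the coding region of WTX (AMER1), and AGS.veh, called the negative control in the labels, was the control line. Each line was profiled once, on an Affymetrix U133 Plus 2.0 array, so there was no replicate. No p-value or error could be given, and every value is a difference between 1 culture and another. In bulk RNA, more cells in mitosis and more of a transcript per cell cannot be told apart.

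Commitment to mitosis depends on CDK1, which is active only when bound to a cyclin of the A or B type. TPX2 activates Aurora A and places it on the spindle, Aurora A with its cofactor BORA activates PLK1, and PLK1 promotes activation of CDK1 with cyclin B. PLK4 acts apart from these in starting the duplication of centrioles. Exit from mitosis requires the APC/C, a ubiquitin ligase that CDC20 directs to cyclin B and securin, with UBE2C as the enzyme that supplies the first ubiquitin. Transcripts of most of these genes rise in G2 and M phase and are low in G1, and they are widely used as markers of dividing cells.

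The promoters of genes with this G2 and M pattern are known for the cell cycle genes homology region (CHR), which the MuvB complexes bind, and for CCAAT boxes bound by NF-Y. Windows from 250 bases before to 50 bases after the gene start were taken from RefSeq (GRCh38.p14) for 7 of the 10 genes. AURKA, TPX2 and UBE2C were not matched. All genes of the group had higher signals in AGS.W on their brightest probe set. The windows of 5 genes are shown for how these letters are arranged at their starts. Those of CDK1 and PLK4, with matches at other positions, are described below but not shown. Capitals mark TTTGAA and CTTGAA (CHR) and CCAAT, on either strand, and each sequence reads 5′ to 3′ on the strand of the gene. The windows of PLK1 (chr16:23678639-23678938, plus strand), CCNA2 (chr4:121823834-121824133, minus strand), CCNB1 (chr5:69166900-69167199, plus strand), CCNB2 (chr15:59104896-59105195, plus strand) and CDC20 (chr1:43358731-43359030, plus strand) were:
PLK1: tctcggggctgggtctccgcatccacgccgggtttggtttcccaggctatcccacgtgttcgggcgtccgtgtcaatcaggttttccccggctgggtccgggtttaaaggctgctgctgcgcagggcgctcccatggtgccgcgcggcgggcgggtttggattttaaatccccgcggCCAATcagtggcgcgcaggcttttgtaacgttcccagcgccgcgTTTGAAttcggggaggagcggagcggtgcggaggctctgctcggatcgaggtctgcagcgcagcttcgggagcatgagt
CCNA2: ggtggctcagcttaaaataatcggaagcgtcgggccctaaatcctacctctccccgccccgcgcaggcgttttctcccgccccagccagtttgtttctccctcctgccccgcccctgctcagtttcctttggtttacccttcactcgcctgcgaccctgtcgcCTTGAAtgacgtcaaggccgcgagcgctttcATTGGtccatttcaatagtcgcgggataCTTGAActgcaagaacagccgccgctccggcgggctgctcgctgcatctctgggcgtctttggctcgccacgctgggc
CCNB1: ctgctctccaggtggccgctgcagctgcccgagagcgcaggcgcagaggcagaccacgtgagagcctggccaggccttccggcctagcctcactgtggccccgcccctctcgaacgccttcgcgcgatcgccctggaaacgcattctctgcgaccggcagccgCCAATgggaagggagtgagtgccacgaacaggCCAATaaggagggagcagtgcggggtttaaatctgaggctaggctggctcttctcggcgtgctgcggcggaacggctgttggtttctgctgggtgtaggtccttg
CCNB2: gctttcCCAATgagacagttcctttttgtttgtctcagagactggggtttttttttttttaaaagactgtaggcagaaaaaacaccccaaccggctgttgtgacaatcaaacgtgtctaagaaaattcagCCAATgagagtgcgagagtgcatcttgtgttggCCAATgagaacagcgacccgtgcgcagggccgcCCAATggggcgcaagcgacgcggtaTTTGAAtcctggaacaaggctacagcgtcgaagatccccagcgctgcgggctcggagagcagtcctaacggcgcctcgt
CDC20: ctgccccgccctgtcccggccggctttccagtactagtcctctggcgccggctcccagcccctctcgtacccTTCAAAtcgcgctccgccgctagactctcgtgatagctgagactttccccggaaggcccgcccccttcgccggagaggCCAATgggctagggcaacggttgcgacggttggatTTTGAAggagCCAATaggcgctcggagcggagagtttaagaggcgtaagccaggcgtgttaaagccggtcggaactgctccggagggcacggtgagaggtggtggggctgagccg

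In PLK1 and CCNB2 a TTTGAA began 29 bases before the start, and in CCNA2 a CTTGAA began 28 bases before it. A CCAAT box began between 54 and 56 bases before the start in CCNA2, CCNB1, CCNB2 and CDC20, in CCNA2 on the opposite strand. CCNB2 held 4 CCAAT boxes, of which those at 120, 87 and 54 bases before the start were evenly spaced, and CCNB1 held a pair at 87 and 55. CDC20 had a TTTGAA 65 bases before the start and another on the opposite strand at 178. The CDK1 window held a TTTGAA and a CCAAT box farther away, at 161 and 150 bases before the start. In PLK4 the single match was a TTTGAA on the opposite strand, 39 bases after the start, with no CCAAT box. CCNB1 alone of the 7 had no match to a CHR in either spelling or in TTCGAA, which was also searched. Other spellings of the CHR were not searched, so CCNB1 may hold one of those. A match to such short letters is a description of the sequence and not a bound site.

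**Figure D1:**
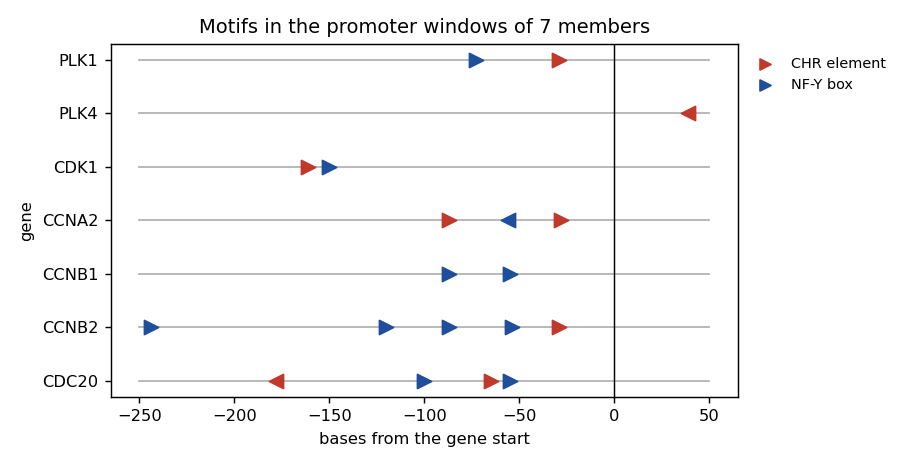
Position of CHR elements (red) and NF-Y boxes (CCAAT, blue) in the promoter windows of 7 genes, in bases from the gene start (horizontal axis), with triangles pointing right for the strand of the gene and left for the opposite strand. The red marks of PLK1, CCNA2 and CCNB2 lie at -29, -28 and -29, and blue marks of CCNA2, CCNB1, CCNB2 and CDC20 lie between -56 and -54.

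Of the 7 windows, 5 held TTTGAA, 1 held CTTGAA and 6 held CCAAT. Among 27305 promoters of the same length, 15.4% held TTTGAA, 11.2% CTTGAA, 1.45% TTCGAA and 35.7% CCAAT. Any of the CHR letters together with CCAAT was found in 5 of the 7 windows and in 9.91% of all promoters. For 36 genes of DNA replication and S phase, 2 windows held TTTGAA and 21 held CCAAT. For 14 core subunits of the APC/C, these numbers were 2 and 5. Windows set after the positions of the members were seen were narrower: a CHR on the strand of the gene 35 to 20 bases before the start occurred in 3 of 7 members and in 0.817% of all promoters. Together with a CCAAT box 60 to 50 bases before the start, it occurred in 2 members and in 13 of the 27305 promoters. Of these 13, CCNA2, CCNB2 and a further 6 genes passed the signal filter, which required a signal at or above the array median on at least 1 array. PRC1, which bundles spindle midzone microtubules, had a log2 difference of 0.78 and the antigen gene CDR2 of 0.81. KIF4A, CKS1B and ASF1B had 0.34, 0.31 and 0.18, and DDX39A, an RNA helicase, had -0.40. Among genes that are not members, 65 above the filter held a CHR in the narrow window, with a median log2 difference of 0.09. Of these, 60% were higher in AGS.W and 18.5% at least 1.5-fold higher, against 45.4% and 6.55% of the genes without it. With any CHR and CCAAT anywhere in the 300 bases, 718 genes above the filter had a median log2 difference of 0.00, and 50.3% were higher in AGS.W, against -0.02 and 45.1% for the 9614 genes without both.

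All 10 genes had a higher signal in AGS.W than in AGS.veh on their brightest probe set, with log2 differences from 0.45 for CCNA2 to 1.28 for AURKA and a median of 0.68. Of the 12811 genes above the signal filter, 45.7% were higher in AGS.W, and their median log2 difference was -0.01. A difference of at least 1.5-fold was reached by 7 of the 10 genes, against 6.64% of all genes above the filter. At least 2-fold, the fold part of the criterion in the methods of the study, was reached by AURKA alone, against 1.83% of genes. That criterion also sets a limit on the false discovery rate, which was not computed here for lack of replicates. Whether AURKA meets the full criterion is therefore not known from these values. Counted over all 21 probe sets, 18 were higher in AGS.W against 44.5% of all probe sets, and 3 were lower. Among the 21, a ratio of 1.5 or more was reached by 8 and a ratio of 2 or more by 2, against 4.42% and 1.07% of all probe sets. The median over the 21 was 0.55, and the median over all 54613 probe sets was 0.00. These counts describe a list picked with such results in view. Probe sets of the same gene share RNA, and the genes share 1 pair of cultures, so none of them is a replicate of another.

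**Figure D2:**
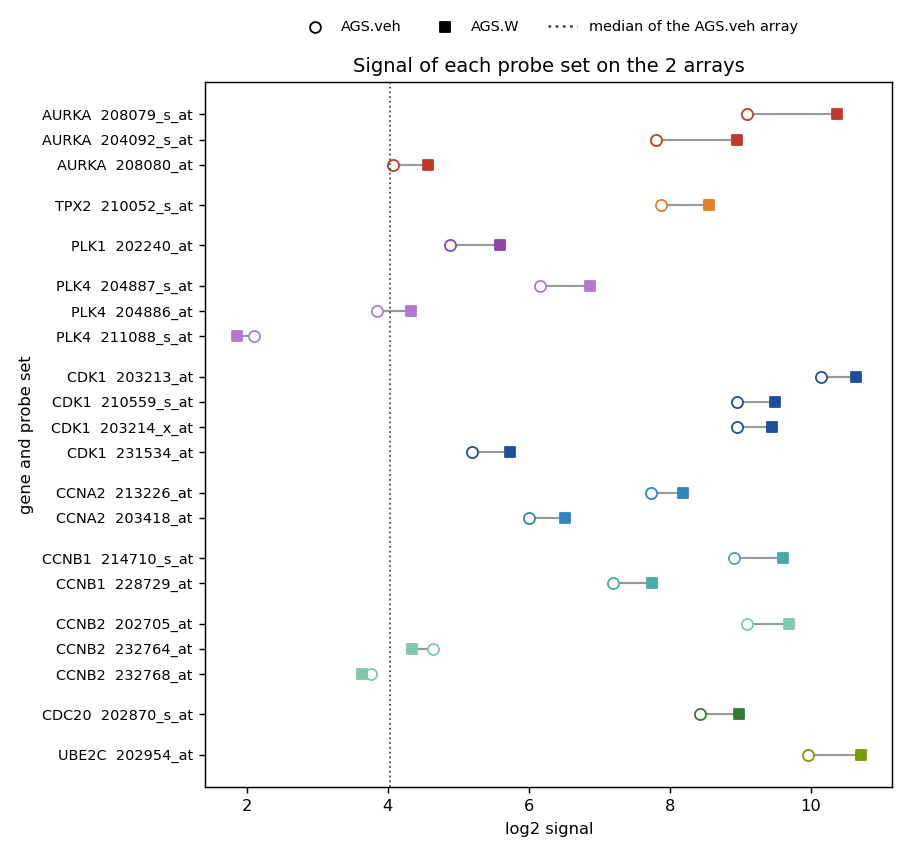
Log2 signal (horizontal axis) of each probe set of the 10 genes in AGS.veh (open circles) and AGS.W (filled squares), 1 array each, with the median of the AGS.veh array as a dotted line. AGS.W lies to the right on 18 of 21 probe sets, and the exceptions are 1 probe set of PLK4 and 2 of CCNB2.

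Aurora A had the largest difference. On probe set 208079_s_at AURKA had a log2 signal of 9.09 in the control line and 10.37 in AGS.W, a ratio of 2.44. On 204092_s_at these signals were 7.81 and 8.95, a ratio of 2.22. The third, 208080_at, lay near the array median with 4.07 and 4.57, a ratio of 1.41. The direction was thus the same on 3 of 3 probe sets, while the size was 2-fold or more on the bright ones, which are of the _s_at type and may read several transcripts. RefSeq lists the pseudogenes AURKAP1 and AURKAP2, and whether these probe sets match them was not tested. Among the 12811 genes above the filter, 113 had a difference at least as large, AURKA included. TPX2, the partner that places Aurora A on the spindle, was read by 1 probe set, at 7.88 in AGS.veh and 8.55 in AGS.W on the log2 scale. Its log2 difference of 0.67 was about that of the group as a whole.

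The Polo kinases of the group had nearly equal differences. PLK1, needed for centrosome maturation and mitotic entry, gave 4.88 in AGS.veh and 5.59 in AGS.W on its single probe set, a log2 difference of 0.71. PLK4 gave 6.16 and 6.87 on its brightest probe set, also a difference of 0.71. A dimmer probe set of PLK4 gave 3.84 and 4.32. The remaining one, 211088_s_at, gave 2.10 and 1.86, far below the medians of both arrays, and was lower in AGS.W. Averaged over all 3 probe sets, PLK4 had a log2 difference of 0.32.

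CDK1 was measured by 4 probe sets, more than any other gene of the group, and they gave similar values. From AGS.veh to AGS.W, the log2 signals were 10.15 and 10.64, 8.95 and 9.49, 8.95 and 9.45, and 5.20 and 5.74. The differences lay between 0.49 and 0.55 on all 4, bright and dim, which corresponds to ratios of 1.41 to 1.46.

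**Figure D3:**
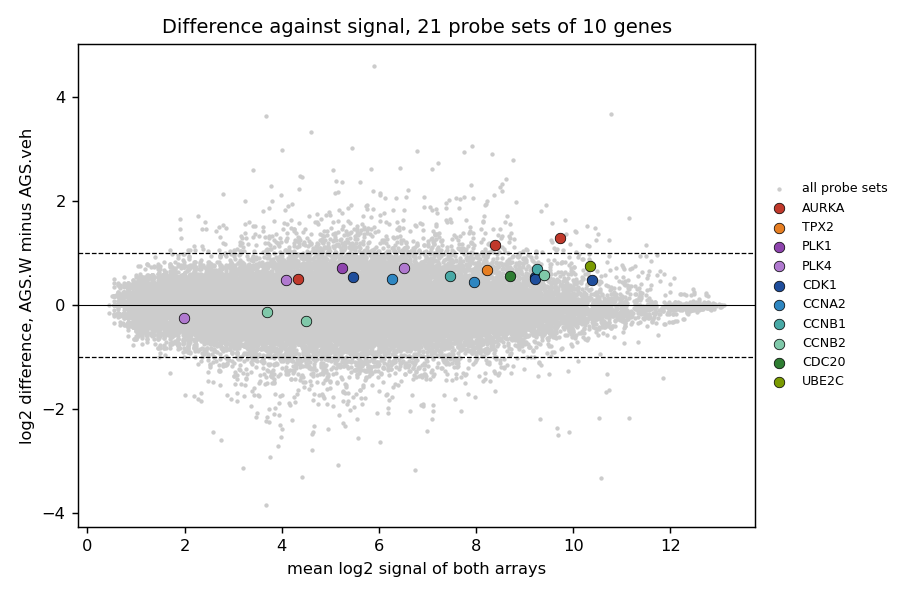
Log2 difference AGS.W minus AGS.veh (vertical axis) against the mean log2 signal of both arrays (horizontal axis) for all 54613 probe sets (grey) and the 21 probe sets of the 10 genes (coloured by gene), with dashed lines at 2-fold. A pair of AURKA points lies above the upper line, most others lie between 0.45 and 0.75, and the 3 points below 0 belong to PLK4 and CCNB2 at mean signals of 4.49 or less.

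The cyclins that activate CDK1 were higher in AGS.W by similar amounts. Cyclin A2 (CCNA2), which acts from S phase into early mitosis, gave log2 signals of 7.74 in AGS.veh and 8.19 in AGS.W on its brighter probe set, and 6.01 and 6.51 on the other. Its differences of 0.45 and 0.50 were at the low end of the group. Cyclin B1 (CCNB1), the main mitotic partner of CDK1, gave 8.91 and 9.60, and 7.19 and 7.74, with differences of 0.69 and 0.56. Cyclin B2 (CCNB2) gave 9.10 and 9.69 on its bright probe set, a difference of 0.59. A pair of dimmer CCNB2 probe sets went the other way. On 232764_at, above both array medians, the signals were 4.65 and 4.34, and on 232768_at, below them, 3.76 and 3.64. Averaged over 3 probe sets CCNB2 had a log2 difference of 0.05, so its value rests on the bright one.

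On the side of mitotic exit, UBE2C had the second largest difference of the 10 genes. It gave log2 signals of 9.96 in AGS.veh and 10.72 in AGS.W, a ratio of 1.68. CDC20, the coactivator that brings substrates to the APC/C and the target of the spindle checkpoint, gave 8.43 and 8.98, a ratio of 1.46. Each was read by 1 probe set. RefSeq holds pseudogenes named after both, CDC20P1 and UBE2CP1 to UBE2CP5, and that of CCNB2, CCNB2P1. Leaving AURKA aside, the 9 other genes spanned ratios of 1.36 to 1.68. Within this span no order can be read, because probe sets of a single gene such as PLK4, with 0.71 and 0.48 on the brighter 2, differed by nearly as much.

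AURKA, TPX2 and UBE2C all lie on chromosome 20, and the values of their neighbours there were looked at after the members were known. Without the members, 381 genes of chromosome 20 above the filter had a median log2 difference of 0.00, and 48.6% were higher in AGS.W. On the other chromosomes these were -0.01 and 45.5%. Within 1 Mb of AURKA, 8 genes had a median of 0.02, of which 0 were at least 1.5-fold higher. Within 1 Mb of TPX2 the median of 19 genes was -0.16, and within 1 Mb of UBE2C that of 34 genes was -0.00, with 1 of them at least 1.5-fold higher.

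Genes that act with the members were compared through lists written from general knowledge. Of 10 listed Aurora kinases and partners, 9 passed the filter, 6 were higher and 3 lower in AGS.W, with a median of 0.54. BORA, the cofactor through which Aurora A activates PLK1, gave 6.46 in AGS.veh and 7.50 in AGS.W, a difference of 1.03. All 4 listed genes of the Aurora B complex were higher, with AURKB at 0.75, INCENP at 0.94, CDCA8 at 0.54 and BIRC5 (survivin) at 0.54. AJUBA and NEDD9, adhesion-linked activators of Aurora A, were lower, with differences of -1.32 and -0.81. Averaged over 5 probe sets NEDD9 had -0.31. The spindle gene HMMR had 0.46 and the centrosome gene CEP192 had -0.17. Across all genes above the filter, 1.94% were at least 2-fold lower, and AJUBA was among them.

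Of the other 3 Polo kinases, 1 was higher and 2 were lower. PLK2, a stress-responsive kinase, gave 7.54 in AGS.veh and 5.81 in AGS.W, a difference of -1.73 on its single probe set. PLK3 had 0.31 and PLK5 had -0.24, and PLK3 averaged -0.01 over 3 probe sets. Of 12 further mitotic and checkpoint kinases, 11 were higher and 4 at least 1.5-fold, with a median of 0.37. The largest differences were 1.07 for BUB1 and 1.07 for TTK (MPS1), kinases of the spindle checkpoint, and 0.75 for NEK2, which separates centrosomes. BUB1 averaged 0.56 over 5 probe sets. NEK7 was the exception with -0.01. MASTL (Greatwall), which restrains the phosphatase that opposes CDK1, had 0.57.

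Regulators of CDK1 included members on opposing sides of its control. CDC25C and CDC25B, phosphatases that activate CDK1, had differences of 0.86 and 0.44, where CDC25C averaged 0.47 over 3 probe sets, and CDC25A, which also acts at the entry into S phase, had -0.33. The inhibitory kinases WEE1 and PKMYT1 were higher too, by 0.67 and 0.39. The small CDK-binding proteins CKS2 and CKS1B had 0.45 and 0.31. The kinase complex that activates CDKs had smaller values, with -0.20 for CDK7, 0.05 for CCNH and -0.02 for MNAT1. In all, 7 of the 10 genes of this list above the filter were higher, with a median of 0.35. The listed E cyclins had negative values. CCNE1, the cyclin of the G1/S transition, had -0.58 and averaged -0.29 over its probe sets, and CCNE2 had -0.05, averaging -0.12. CDK2 had 0.40, averaging 0.25, and CCNF had 0.35, averaging 0.45, and CCNA1 did not pass the filter.

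The core of the APC/C was spread around 0. Of 13 measured core subunits, all above the filter, 5 were higher, 7 lower and 1 equal, and the median was -0.02. The subunits CDC27 and ANAPC10 had the largest positive values, 0.45 each, where ANAPC10 averaged 0.27 over its probe sets, and ANAPC15 the lowest, -0.67. None was at least 1.5-fold higher. Among other coactivators, ubiquitin-conjugating enzymes and inhibitors, 5 of 6 genes above the filter were higher, with a median of 0.36. UBE2S, which extends the ubiquitin chains that UBE2C begins, gave 9.66 in AGS.veh and 10.38 in AGS.W, a difference of 0.73. The alternative coactivator FZR1 (CDH1), which takes over from CDC20 late in mitosis, had 0.06 and averaged 0.33 over 4 probe sets. The inhibitors FBXO5 (EMI1) and MAD2L1 (MAD2) had 0.32 and 0.41, and the deubiquitinase USP37 had 0.56. Of 14 other proteins degraded through the APC/C, 13 had a higher transcript signal in AGS.W and 6 at least 1.5-fold, with a median of 0.57. ANLN, an organiser of the contractile ring, had 0.94, CDCA3 had 0.90 and the kinesin KIF18A had 0.85. Securin (PTTG1) had 0.34 and geminin (GMNN) 0.15, and SKP2 had -0.28 on its brightest probe set but averaged 0.08 over 3.

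**Figure D4:**
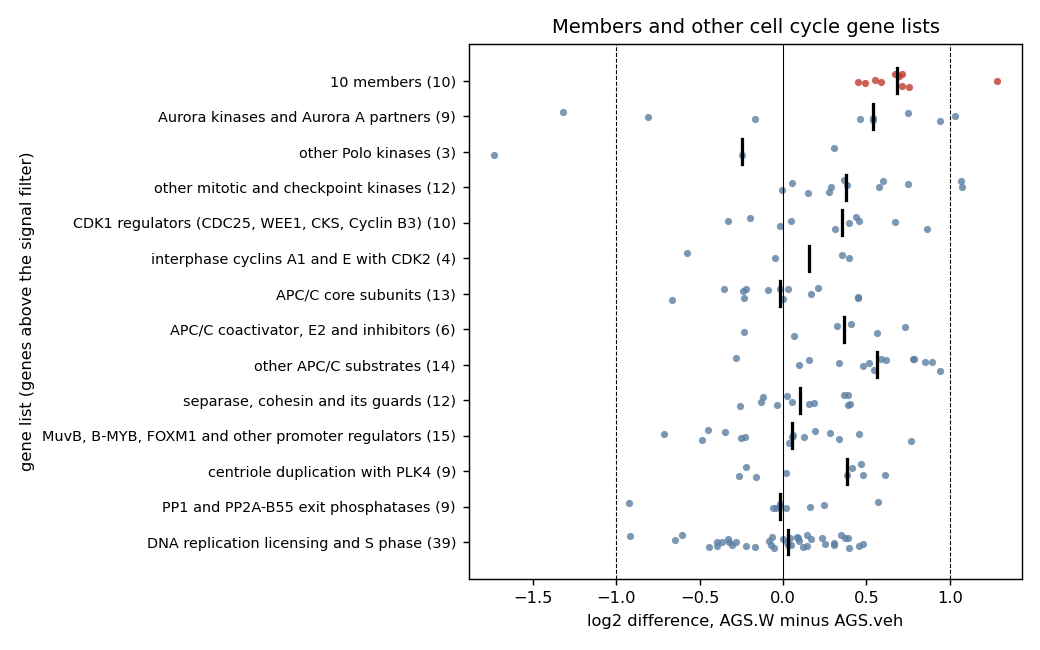
Log2 difference AGS.W minus AGS.veh (horizontal axis) of the 10 members (red) and of the genes of 13 other lists above the signal filter (blue, number of genes in brackets), 1 point per gene on its brightest probe set, with list medians as black bars and dashed lines at 2-fold. The members lie between 0.45 and 1.28 and other APC/C substrates have a median of 0.57, whereas core APC/C subunits and replication genes have medians of -0.02 and 0.03.

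Genes listed for centriole duplication with PLK4 were partly higher. They included the F-box genes FBXW11 and BTRC, which are not part of centriole assembly. Of 9 genes, 6 were higher, with a median of 0.38: the scaffold gene CPAP had 0.61, SASS6, which builds the cartwheel, had 0.48, and STIL, an activator of PLK4, had 0.47. CEP152, which recruits PLK4, had 0.38 and averaged 0.64 over its probe sets. CEP63, CEP135 and FBXW11 had -0.16, -0.22 and -0.26. Separase (ESPL1) had 0.40, and cohesin and its guards had a median of 0.10 over 12 genes. The list for phosphatases that reverse CDK1 phosphorylation also held ENSA, ARPP19 and REPS2, which do not encode phosphatase subunits. Of its 9 genes, 4 were higher, and the median, which was the value of ARPP19, was -0.02. With gene values averaged over probe sets that median was 0.16. PPP2R2B had 0.57 and PPP2R2D had -0.92 there, averaging 0.19 and -0.49 over their probe sets.

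Genes for factors that control G2 and M promoters were spread around a median near 0. FOXM1 gave 7.51 in AGS.veh and 7.55 in AGS.W, a difference of 0.03, and MYBL2 (B-MYB) gave 8.14 and 8.20, a difference of 0.06. Of the MuvB core, LIN37 had 0.76, averaging 0.29 over its probe sets, and LIN52 had 0.46, while LIN9 and LIN54 did not pass the filter. RBBP4, also of the core, had -0.23 on its brightest probe set but averaged 0.18 over 6. Of the NF-Y subunits, NFYB had 0.06, NFYA -0.25 and NFYC -0.48, and they averaged -0.08, -0.32 and -0.33 over their probe sets. TFDP1, a partner of E2F factors, had -0.72, the lowest brightest-probe-set value of this list, but averaged -0.29. Over its 15 genes above the filter, the list had 9 higher, 6 lower and a median of 0.06. Of 39 replication genes, 21 were higher and 17 lower, 0 were at least 1.5-fold higher and 3 were at least 1.5-fold lower, with a median of 0.03. On the brightest probe set, DBF4, DTL and ORC1 had the highest values, 0.48, 0.46 and 0.40. GINS2, UHRF1 and MCM10 had the lowest, -0.92, -0.65 and -0.60, with GINS2 and MCM10 averaging -0.47 and -0.22 over their probe sets. CDT1 had 0.23 but averaged 0.61 over its 2 probe sets, past 1.5-fold and the highest average of the list. With gene values averaged over probe sets, the median of the list was again 0.03. The genes of the replicative helicase, MCM2 to MCM7, ranged from -0.40 for MCM3 to 0.31 for MCM6, and PCNA had -0.07. Whether the members and the replication genes differ beyond the variation between cultures was not tested, since each line had 1 array.

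Some values of the arrays as a whole stand beside these results. The arrays had median log2 signals of 4.03 (AGS.veh) and 4.02 (AGS.W). AMER1, the transduced gene, gave 3.86 and 3.70 on its single probe set, below both medians. The vector held the coding region alone, and whether the probe set lies in it was not settled, so it does not check the labels. The extraction protocol in the labels names a region of the brain, whereas the other fields name AGS. Of 8 gastric and epithelial markers 5 passed the filter. The keratin genes KRT8 and KRT18 were bright, KRT8 with 10.13 and 9.76 and KRT18 with 11.17 and 10.87 in AGS.veh and AGS.W, and KRT19 and CDH17 were below the medians. EPCAM was higher in AGS.W by 0.92. Among markers of astrocytes 3 of 6 and of neurons 4 of 6 passed it, but GFAP, S100B, AQP4, SYT1 and NEFL were below the medians of both arrays. The neuron marker GAD1 lay well above them, at 7.11 in AGS.veh and 7.06 in AGS.W. SLC17A7, also of neurons, was at 4.76 and 5.02, and SLC1A2, of astrocytes, was at 5.02 and 4.79. SNAP25, found at synapses and in neuroendocrine cells, was at 3.57 and 5.15 and averaged a difference of 0.85 over its probe sets. Fibroblast markers passed for 2 of 4, with COL1A1 at 6.95 and 7.89 and an average difference of 0.29 over its probe sets. PTPRC, the pan-leukocyte marker, was at 1.63 and 1.85. Summed over each list on the linear scale, log2 signals in AGS.veh and AGS.W were 11.80 and 11.51 for gastric and epithelial, 6.46 and 6.41 for astrocyte, 7.74 and 7.92 for neuron, 4.56 and 4.59 for microglia and blood, and 7.31 and 8.09 for fibroblast markers. The part of these markers in the higher signals of the members was not tested.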

How the data were processed

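RNA of AGS.W and AGS.veh was measured on 1 Affymetrix U133 Plus 2.0 array per line. The authors deposited log2 signals per probe set that were already normalized between the arrays. The labels name RMA and MAS5 without versions or roles, and the sources used here do not give the background correction. The log2 scale was kept, and AGS.veh was subtracted from AGS.W on each of 54613 probe sets, leaving out 62 controls. The platform annotation gave 41091 probe sets 1 gene, with symbols updated through RefSeq gene identifiers. Scaling both arrays alike hides a difference in total RNA per cell. A gene was represented by its probe set of highest mean signal. The signal filter required the array median on at least 1 array. Gene lists were described by counts and medians. Members and lists were chosen with earlier results of these data known. All members were named, and of each list up to 3 genes in each direction or short families. Other genes were picked for their role with their values known. Motifs were searched on both strands of RefSeq promoter windows. Alternatives were other scalings, probe set summaries, filters and fold thresholds of 1.5 and 3. The steps were tested on simulated data with less noise and larger shifts than the members had. Recovery of differences of the members' size was not tested. The software was matplotlib 3.10.9, statsmodels 0.14.6, scipy 1.17.1, pandas 2.3.3, numpy 2.4.6 and Python 3.11.15. The number of arrays limits the precision.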

Additional observations from a re-analysis of the deposited data

How the results depend on the processing

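No paired analysis was possible because the lines had a single array apiece. To judge a move, the spread of the 1000 probe sets nearest in signal was used for genes and a 95% binomial interval over the members for medians. Of 58 alternative values of the 10 genes, 55 stayed within that spread and 0 changed sign. Part of these values could not move, because some summaries returned the same probe set, as for the 4 genes with 1 probe set. Median centring, quantile normalization and a lowess curve (span 0.3) moved no gene by more than 0.04 on the log2 scale. Those outside the spread were AURKA at 0.50 once _x_at and _s_at probe sets were dropped, and PLK4 at 0.32 and CCNB2 at 0.05 as means of all their probe sets. Without these types 12 probe sets were left, of which 10 were higher and 0 at least 2-fold apart, with a median of 0.50, since both AURKA probe sets past 2-fold are of the _s_at type. TPX2 and CDC20 have only that type and gave no value. At 1.5-fold, 8 of the 21 probe sets passed, and at 3-fold 0 did. Of 36 alternative medians of gene lists, 34 were counted as unchanged. Requiring the median on both arrays left most lists with the same genes, so those values could not move. As means of probe sets, the median of gastric and epithelial markers changed sign, from -0.13 to 0.10. That of microglia and blood markers, with 1 gene above the filter, left its interval, from 0 to 0.005. That of the exit phosphatase list went from -0.02 to 0.16, within its interval. The causes were not tested. For dim probe sets, signal over background limits what their differences show.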
